A study of Mus musculus with 12 samples.

Results

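The genes of the PAR bZIP transcription factors HLF, DBP and TEF and of the related repressor NFIL3 were examined for chromatin accessibility in brown and inguinal fat with and without BAF60a, the product of Smarcd1 and a part of SWI/SNF chromatin remodellers. Every peak that the deposited tables assign to Hlf, Dbp, Tef or Nfil3 was taken, which gave 37 of the 58558 peaks of brown fat (14 for Hlf, 2 for Dbp, 8 for Tef and 13 for Nfil3) and 26 of the 39558 peaks of inguinal fat (9, 2, 6 and 9). Brown adipose tissue (BAT) came from 3 control mice with floxed BAF60a alleles (flox) and 3 mice in which Cre under the Adiponectin promoter deletes BAF60a in adipocytes (AKO), on the C57BL/6 background, with neither age nor housing temperature given in the sources used here. Inguinal white adipose tissue (iWAT) came from flox and AKO mice aged 6 to 8 months that were kept at 10 °C for 7 days, and each genotype was 1 pool of tissue from 6 mice divided into 3 aliquots. Accessibility was read by ATAC-seq, in which a transposase cuts open DNA, so a peak with more reads was cut more often. Nuclei were taken from whole tissue, in which Cre leaves endothelial, immune and stromal cells untouched, and fewer cells of a type and less accessibility per cell cannot be told apart in such samples.

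HLF, DBP and TEF are activators with a proline and acidic amino acid rich domain, and their basic leucine zippers bind the D-box. NFIL3, also called E4BP4, recognises the same site and represses it. In liver and other organs the clock proteins CLOCK and BMAL1 drive Dbp through E-boxes, REV-ERBα restrains Nfil3 through ROR elements, and the products of these genes pass the daily rhythm on to detoxification and lipid metabolism genes. The sources used here give no time of day for the collection of the tissue.

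Motifs of clock factors, of cAMP signalling and of the PAR bZIP family itself were searched in the member peaks. Stretches with a D-box, a CRE or at least 2 matches are shown, and those with a single match to another motif are not. They run 5′ to 3′ in the direction of transcription of the gene (genome GRCm38, the assembly called mm10), with the matches in capitals. The letters searched on both strands were CACGTG (E-box), TTATGTAA and TTACGTAA (D-box), TTATGCAA (shared by D-box and C/EBP sites), TTGCGCAA and TTGCGTAA (C/EBP), TGACGTCA (the cAMP response element, CRE) and the ROR element RORE, AGGTCA with AANT before it. A match means only that these letters occur.
Dbp intron 2, 2 E-boxes, chr7:45707697-45707845, plus strand: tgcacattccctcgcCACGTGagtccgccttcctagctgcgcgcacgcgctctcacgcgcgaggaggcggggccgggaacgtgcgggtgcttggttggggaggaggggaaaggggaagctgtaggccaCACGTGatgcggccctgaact
Hlf start site, CRE, chr11:90390904-90390941, minus strand: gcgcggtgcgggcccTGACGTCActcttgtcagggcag
Hlf 27.2 kb upstream, 3 E-boxes and a RORE, chr11:90418096-90418224, minus strand: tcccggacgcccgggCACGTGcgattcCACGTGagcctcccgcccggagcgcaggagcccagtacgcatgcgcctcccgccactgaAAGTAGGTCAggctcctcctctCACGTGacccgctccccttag
Tef ahead of the second start site, 2 E-boxes, chr15:81810928-81811074, plus strand: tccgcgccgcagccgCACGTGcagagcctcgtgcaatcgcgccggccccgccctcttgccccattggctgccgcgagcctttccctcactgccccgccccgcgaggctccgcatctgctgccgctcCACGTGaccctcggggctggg
Tef after the first start site, D-box, chr15:81803269-81803306, plus strand: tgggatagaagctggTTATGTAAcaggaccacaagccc
Nfil3 intron 1 near the start site, D-box and TTATGCAA read on the opposite strand, chr13:52980564-52980727, minus strand: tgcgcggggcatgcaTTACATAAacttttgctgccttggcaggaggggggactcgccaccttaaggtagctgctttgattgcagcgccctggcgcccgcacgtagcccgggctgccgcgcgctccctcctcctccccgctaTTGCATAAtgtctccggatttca
Nfil3 intron 1, 2 E-boxes, chr13:52974843-52974893, minus strand: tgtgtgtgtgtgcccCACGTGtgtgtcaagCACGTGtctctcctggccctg

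The stretch upstream of Hlf stood out by its number of E-boxes. Among brown fat peaks within 10% of its width, 4 of 5371 (0.0745%) held at least 3 E-boxes, this one included, and in inguinal fat 5 of 3391 (0.147%). In all, 9 of the 37 brown fat member peaks (24.3%) held an E-box, against 6811 of all 58558, and 7 of 26 inguinal ones (26.9%), against 4353 of all 39558. The member peaks were wider than the table's median (552 against 482 bp in brown fat and 444 against 432 bp in inguinal fat), and wider peaks hold more matches. The part of width in the E-box shares was not tested. A D-box lay in 1 brown fat member peak, that over the Nfil3 start site, and in 2 inguinal ones, those over the Nfil3 and the first Tef start site. D-boxes were found in 2.72% of all brown fat peaks and in 2.16% of all inguinal ones.

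Promoters (250 bases before to 50 after the start site, RefSeq, GRCm38.p6) were available for all 4 genes, with 2 start sites for Tef. The Hlf promoter held a CRE whose first base lay 9 bases before the start site, and 588 of 32851 mouse promoters (1.79%) held one. Both Tef promoters held an E-box, at 127 and 138 bases before the start sites, a match present in 7.15% of promoters. The promoters of Dbp and Nfil3 held none of the letters searched. The promoter at the second Tef start site is shown because the peak over it had the most reads of all member peaks in both tissues.
Tef promoter at the second start site, E-box, chr15:81811164-81811463, plus strand: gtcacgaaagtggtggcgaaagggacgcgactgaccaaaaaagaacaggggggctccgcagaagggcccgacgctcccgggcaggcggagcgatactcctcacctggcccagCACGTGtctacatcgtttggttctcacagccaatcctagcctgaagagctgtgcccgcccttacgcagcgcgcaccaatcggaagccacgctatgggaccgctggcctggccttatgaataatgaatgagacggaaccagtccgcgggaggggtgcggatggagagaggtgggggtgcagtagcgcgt

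The targeted gene was checked first. Smarcd1 had 2 peaks in brown fat, and the one inside the gene (chr15:99704113-99704521) held 136, 201 and 185 normalized reads in flox against 23.7, 57.9 and 26.9 in AKO mice, while the promoter peak held 369 to 485 and 412 to 497. In iWAT only the promoter peak is listed, with 188 to 249 reads in flox against 230 to 233 in AKO aliquots, so the deletion could not be checked there. Normalized reads are reads per peak divided by a size factor of the sample, set by the authors within each table, so levels of the 2 tissues are on separate scales and are compared only by rank. Total reads in peaks ran from 6336670 to 27500738 in brown fat, where AKO mouse 2 had the fewest, and from 4066720 to 6691161 in iWAT. Start-site peaks were found for all 8 adipocyte marker genes in both tissues and for none of 7 macrophage genes. All 7 thermogenic genes had one in brown fat and 6 in iWAT, where Ucp1 had none.

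In brown fat, the peaks of these genes tended to hold fewer reads in AKO than in flox mice, but none of them passed the test. Of the 37 member peaks, 29 had a negative fitted log2 fold change of AKO against flox (78.4%), against 49.1% of all brown fat peaks, and their median was -0.14 with a range from -0.86 to 0.34, while the median of all peaks was 0.01. The groups did not overlap at 9 member peaks that were lower in AKO mice, where the share of all peaks is 8.84%, and at 0 that were higher, where it is 8.77%. The test was limma on log2(normalized reads + 1), with each sample's score on the first principal component (PC1) as a covariate, as the study used one in this tissue. It called 0 member peaks at an adjusted p under 0.1, with 0% of all peaks called. Limma also did not call the Smarcd1 peak inside the deleted gene (log2 fold change -2.98, adjusted p = 0.269), so a missing call does not show an unchanged peak. At an unadjusted p under 0.05 it marked 4 member peaks as lower (5.59% of all peaks) and 0 as higher (3.46%). DESeq2 and edgeR, run on the recovered reads, also called 0 member peaks and 174 and 84 peaks of the whole table. Of the 6 peaks of Smarcd1 and its paralogs, each of the 2 tools called 1, lower in AKO mice.

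The covariate matters to these values, since the PC1 score ran from -98.2 in the sample with the most reads (flox mouse 1) to 112 in the one with the fewest (AKO mouse 2). The scores were -98.2, -41.8 and 14.6 in flox mice and -0.617, 112 and 13.5 in AKO mice, so PC1 was partly aligned with genotype. A fit with it can therefore take away a part of the genotype difference as well. AKO mouse 2 held the lowest value of the 6 samples at 18 of the 37 member peaks (48.6%), against 28.9% of all peaks. Without the covariate, 31 member peaks had a negative value and their median was -0.25, with 0 called. At 8 of the 37 the sign differed between the fits, as the plot of both fits shows. Without AKO mouse 3 the groups did not overlap at 18 member peaks that were lower and without flox mouse 2 at 14, against 14.5% and 12.3% of all peaks. The other 4 mice, left out in turn, gave 10 to 12, against 12.5% to 16.9% of all peaks, the fewest without AKO mouse 2. At most 1 member peak was higher without overlap when a mouse was left out. Without flox mouse 3, 20 of the 37 fitted values were negative and their median was -0.056. The summed start-site peaks of the adipocyte markers (14203 to 17251 reads in flox, 9615 to 13846 in AKO), the thermogenic markers (4126 to 5981 and 2743 to 3584) and the muscle markers (3 of 7 genes, 682 to 767 and 507 to 668) were also lower in AKO mice without overlap, while the other marker lists with start-site peaks overlapped. The part of depth and of cell composition in the lower member values was not tested.

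**Figure D1:**
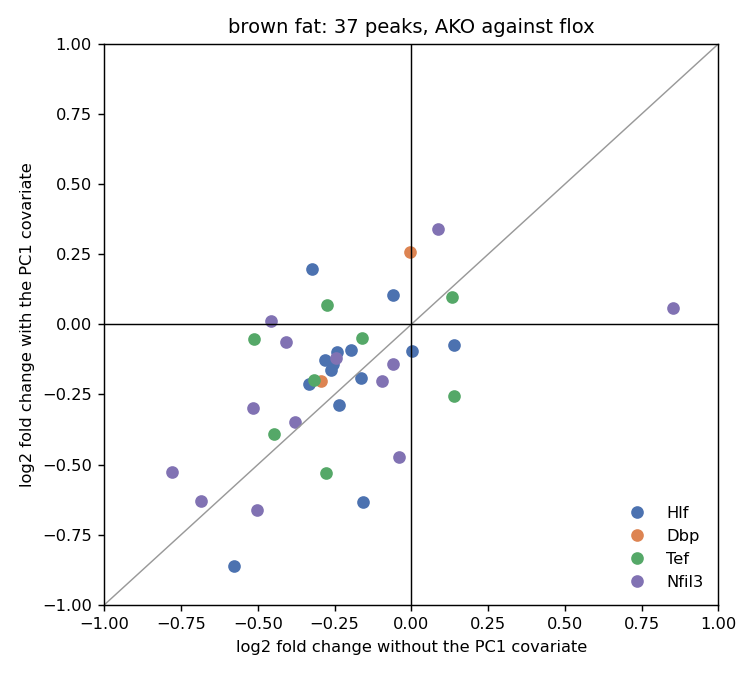
Log2 fold change of AKO against flox at the 37 brown fat member peaks, fitted without (horizontal axis) and with (vertical axis) the PC1 covariate, on log2(normalized reads + 1), coloured by gene, with a grey line of equal values. Most points lie left of 0 and below 0, and the 8 peaks in the upper left and lower right corners changed sign between the fits.

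In cold-acclimated iWAT, the member peaks leaned the other way, and again none passed the test. Of the 26 peaks, 18 had a positive log2 fold change and 8 a negative one (30.8%, against 50.1% of all iWAT peaks). Their median was 0.09 with a range from -0.13 to 0.85, beside a median of 0.00 over all peaks. At 7 member peaks every AKO aliquot lay above every flox aliquot, an order found at 10.6% of all peaks, and at 0 the order was the reverse, which 10.3% of all peaks show. Limma, here without a covariate, called 0 of the 26 at an adjusted p under 0.1 (0% of all peaks). It marked 4 as higher at an unadjusted p under 0.05 (7.61% of all peaks) and 0 as lower (7.42%). DESeq2 called 0 member peaks and edgeR 2, both higher in AKO, of 420 and 1846 calls over the whole table. These p-values measure the spread between aliquots of 1 pool and not between mice. Flox aliquot 2 held the lowest value at 9 of the 26 peaks (34.6%, against 17.4% of all peaks). Without it, 13 peaks were negative and the median was 0.026. The summed start-site peaks of the fibroblast markers (4 of 7 genes had one) were higher in AKO aliquots (505 to 516 reads in flox, 522 to 548 in AKO). All 16 peaks of these markers had a median of 0.01, with 7 negative. Without overlap, 2 of them were lower in AKO aliquots and 1 higher. The part of fibroblasts in the member values was not tested.

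**Figure D2:**
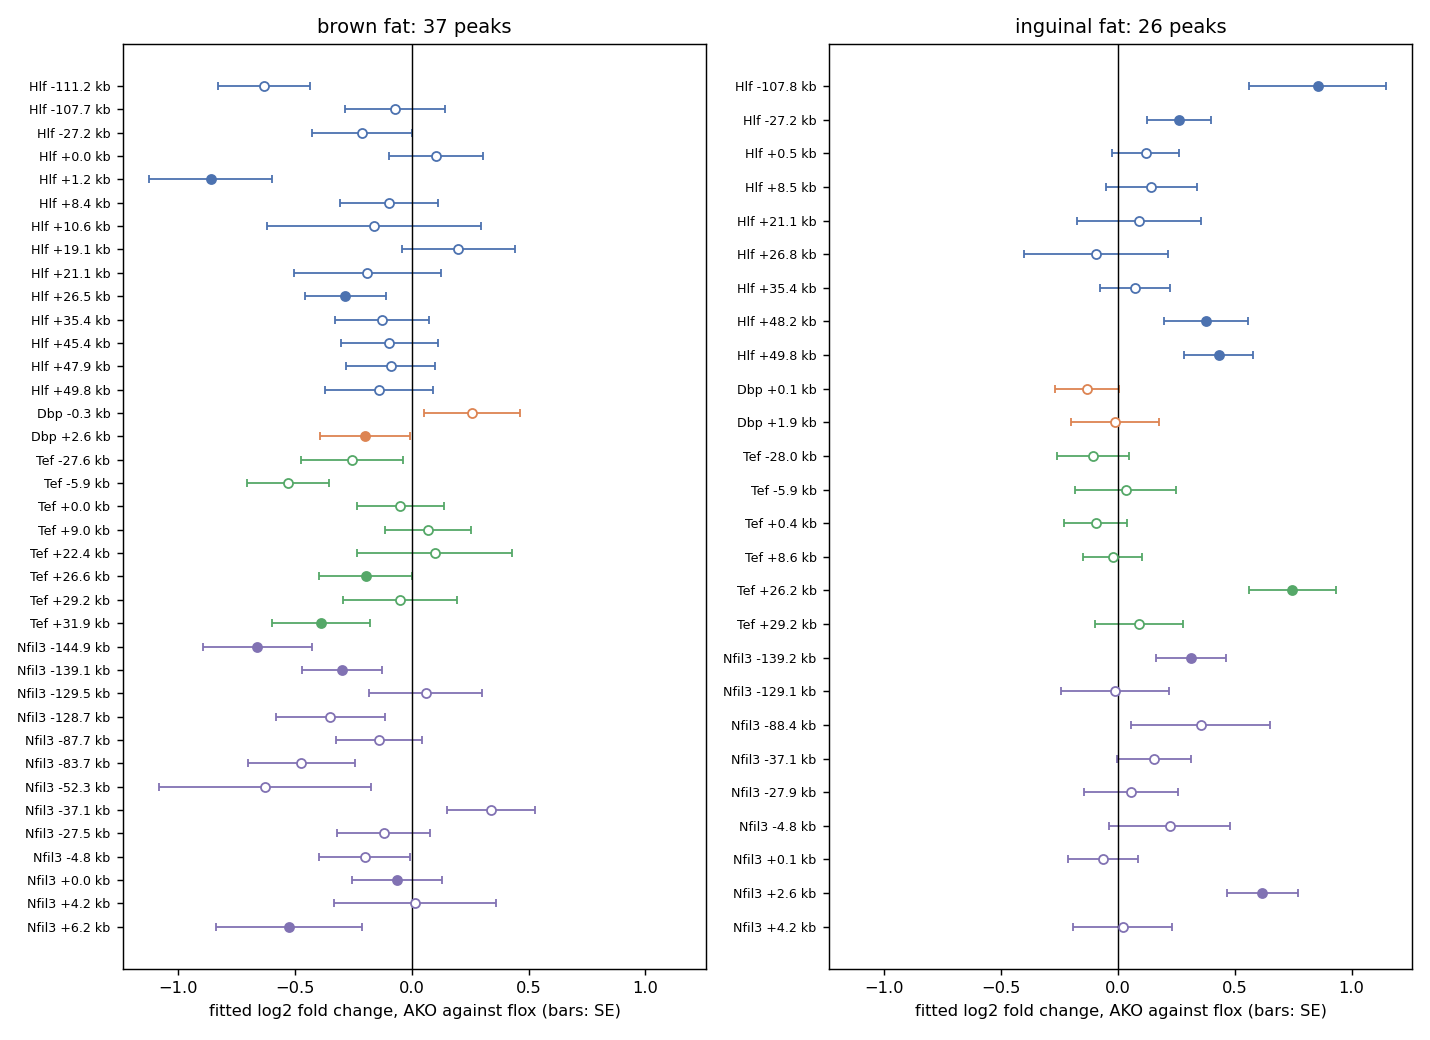
Fitted log2 fold change of AKO against flox (horizontal axis, log2(normalized reads + 1), bars give the SE) for each member peak of brown fat (left, 37 peaks) and inguinal fat (right, 26 peaks), labelled by gene and by the distance of the peak midpoint from the start site. Filled points are peaks whose flox and AKO samples did not overlap: 9 in brown fat, all left of 0, and 7 in inguinal fat, all right of 0. Of all peaks, 8.84% were lower without overlap in brown fat and 10.6% higher in inguinal fat.

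Hlf, the gene of the activator hepatic leukemia factor, spans 54360 bp of chromosome 11 on the minus strand (chr11:90336536-90390895). The peak over its start site (chr11:90390600-90391151), which holds the CRE stretch, counted 235, 193 and 228 reads in flox brown fat against 229.9, 178 and 223 in AKO. The samples overlapped, and the fitted log2 fold change was 0.10 with an SE of 0.20 (adjusted p = 0.900). The iWAT peak there was wider (chr11:90389645-90391108) and held 153, 186 and 165 reads in flox against 172, 202 and 173 in AKO aliquots, also with overlap (log2 fold change 0.12, SE 0.14, adjusted p = 0.741).

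The strongest Hlf peaks were not those at the start of the full-length transcript. In brown fat the most reads per kb of peak (983) lay in intron 2, 35.4 kb downstream (chr11:90355118-90355956), with 929, 859 and 917 reads in flox against 752, 624 and 867 in AKO mice. The highest AKO value, 867, lay above the lowest flox value, and the log2 fold change was -0.13 with an SE of 0.20 (adjusted p = 0.871). This peak ranked between percentiles 97.6 and 99.2 of all brown fat peaks by reads per kb, and the start-site peak between 63.2 and 77.6. Another intron 2 peak, 8.44 kb downstream and near the start of a shorter transcript (chr11:90381964-90382949), held 805, 806 and 829 reads in flox against 698, 572 and 814 in AKO mice. Its flox values were close together and the AKO values spread across a wider range (log2 fold change -0.10, SE 0.21, adjusted p = 0.909). Its iWAT counterpart held 219.6, 145 and 214 reads in flox against 229, 213 and 187 in AKO aliquots (log2 fold change 0.14, SE 0.20, adjusted p = 0.772).

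The smallest p-value among the Hlf peaks of brown fat belonged to a small peak in intron 1 over the start of shorter transcripts, 1.24 kb downstream, and its whole sequence is printed for that reason, with its single E-box in capitals.
Hlf intron 1 peak, chr11:90389544-90389758, minus strand: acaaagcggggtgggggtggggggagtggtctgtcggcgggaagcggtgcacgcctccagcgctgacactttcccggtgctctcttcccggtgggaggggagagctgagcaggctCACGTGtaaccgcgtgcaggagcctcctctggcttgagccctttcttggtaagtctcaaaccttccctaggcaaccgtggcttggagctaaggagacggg

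It held 42.8, 55.4 and 76.3 reads in flox against 42.3, 38.6 and 32.6 in AKO mice. The groups separated only by the gap between 42.8 and 42.3. The log2 fold change was -0.86 with an SE of 0.26 (unadjusted p = 0.0132, adjusted p = 0.480), and without flox mouse 3 it was -0.51. In iWAT this stretch falls partly into the wider peak over the start site, described above. The other Hlf peak that did not overlap in brown fat lay in intron 2, 26.5 kb downstream (chr11:90363633-90365077), with 369, 378 and 388 reads in flox against 329.9, 332 and 302 in AKO mice (log2 fold change -0.29, SE 0.17, adjusted p = 0.662). A peak 111 kb upstream, inside the neighbouring gene Stxbp4, had an unadjusted p of 0.0148 (log2 fold change -0.63, adjusted p = 0.482), but its samples overlapped, at 28.2 to 50.4 reads in flox against 27.8 to 40.6 in AKO mice.

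In iWAT, 4 of the 9 Hlf peaks were higher in every AKO than in every flox aliquot, an order found at 10.6% of all iWAT peaks. The one with the smallest p-value covered the border of intron 3 and exon 4 (chr11:90340847-90341248), with 43.5, 42.2 and 40.5 reads in flox against 48.4, 61.7 and 62.0 in AKO aliquots (log2 fold change 0.43, SE 0.15, unadjusted p = 0.0207, adjusted p = 0.246). A second lay nearby in intron 3 (chr11:90342385-90343022), with 42.2 to 47.8 reads in flox against 49.2 to 74.2 in AKO. The third was the peak with 3 E-boxes 27.2 kb upstream of the gene (chr11:90417850-90418335), the iWAT Hlf peak with the most reads per kb (444), which held 197, 208 and 183 reads in flox against 209.8, 250.03 and 246 in AKO aliquots. The lowest AKO value, 209.8, was just above the highest flox value, 208. The log2 fold change was 0.26 with an SE of 0.14 (adjusted p = 0.421). The same place in brown fat (chr11:90417772-90418335) held 409 to 438 reads in flox against 294 to 414 in AKO mice, with overlap (log2 fold change -0.21, SE 0.22, adjusted p = 0.792). The last was the peak in Stxbp4, 108 kb upstream (chr11:90498569-90498768), with 14.3, 22.2 and 20.7 reads in flox against 36.9, 22.8 and 49.2 in AKO aliquots, the largest log2 fold change of all member peaks in iWAT at 0.85 (SE 0.29, adjusted p = 0.248). Before scaling it held 20 to 46 reads an aliquot, so its counting error is large.

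**Figure D3:**
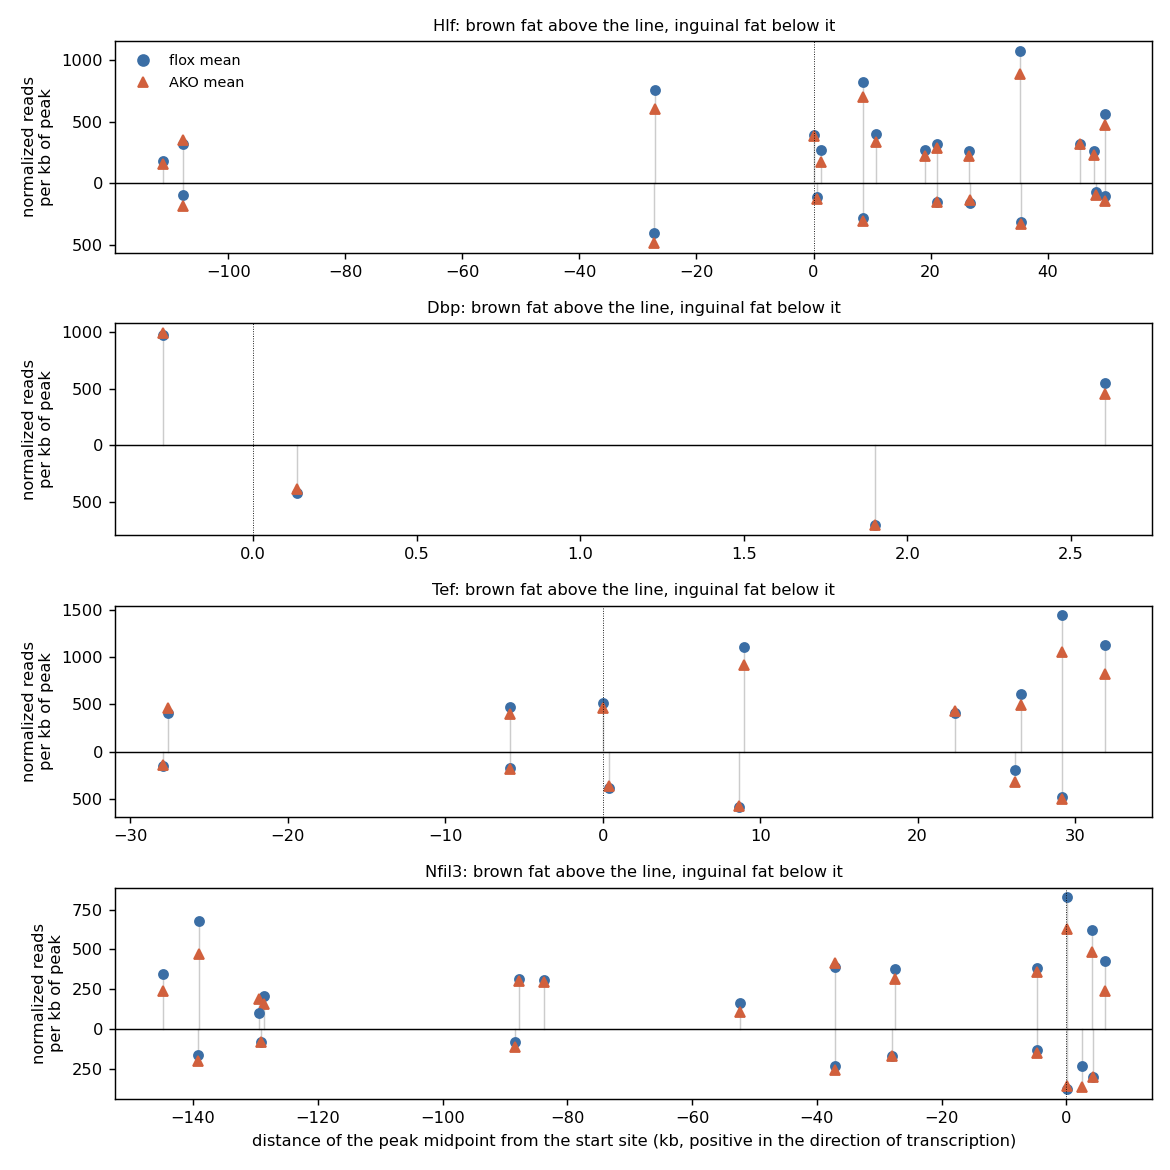
Mean normalized reads per kb of peak width (vertical axis) in flox (circles) and AKO (triangles) samples for each member peak, against the distance of its midpoint from the start site of the gene (horizontal axis, kb), with brown fat above the line and inguinal fat below it, on scales set separately by the 2 tables. Hlf and Nfil3 carried peaks as far as 111 and 145 kb upstream, while both Dbp peaks of each tissue lay at or inside the gene.

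Dbp, whose product activates through the D-box and whose transcript is among the most rhythmic of the liver, is a small gene of 5116 bp (chr7:45705088-45710203). Its start-site peak in brown fat (chr7:45704125-45705498) held 1365, 1350.1 and 1306 reads in flox against 1514, 1024 and 1537 in AKO mice. AKO values lay both above and below all flox values, and the fitted log2 fold change was 0.26 with an SE of 0.21 (adjusted p = 0.737). Without the covariate it was -0.01. The peak over exons 2 and 3 (chr7:45706721-45708665), which holds both intron 2 E-boxes, held 1077, 1086 and 1026 reads in flox against 819.6, 792 and 1001 in AKO mice. No AKO mouse reached the lowest flox mouse, but the log2 fold change of -0.20 was close to its SE of 0.19 (adjusted p = 0.781). Of brown fat peaks within 10% of this width, 83 of 1136 (7.31%) also held at least 2 E-boxes.

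In iWAT the Dbp start-site peak (chr7:45704328-45706115) held 829.7, 674 and 763 reads in flox against 723, 674 and 664 in AKO aliquots, with overlap (log2 fold change -0.13, SE 0.14, adjusted p = 0.688). The second iWAT peak was a narrow one of 72 bp in exon 2 and intron 2 (chr7:45706955-45707026), which does not reach the E-boxes. It held 50.6, 45.6 and 55.1 reads in flox against 53.0, 38.8 and 59.9 in AKO aliquots, with a log2 fold change of -0.01 (SE 0.19, adjusted p = 0.979). Its 701 reads per kb were the most of all member peaks in iWAT, but this measure depends on the called width. Before scaling the peak held only 34 to 71 reads an aliquot.

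Tef, the gene of thyrotroph embryonic factor, starts at 2 sites on chromosome 15 in the annotation (chr15:81802421-81826863). The brown fat peak over the first (chr15:81801664-81803265) held 824, 826 and 823 reads in flox against 744, 647 and 829.9 in AKO mice. The flox mice were nearly equal and 1 AKO mouse lay above them all (log2 fold change -0.05, SE 0.19, adjusted p = 0.955). The peak over the second, whose E-boxes are printed above (chr15:81810170-81812578), held 3083, 2469.6 and 2449 reads in flox against 2505, 1702 and 2466 in AKO mice. Its values overlapped, with a log2 fold change of 0.07 and an SE of 0.18 (adjusted p = 0.932), and of -0.28 without the covariate. At 1015 reads per kb it ranked between percentiles 97.9 and 98.9 in all 6 mice. Of brown fat peaks of like width, 9 of 485 (1.86%) held at least 3 E-boxes as it did. In iWAT, the peak over the first start site held 421, 389 and 392 reads in flox against 338, 386 and 403 in AKO aliquots (log2 fold change -0.10, SE 0.13, adjusted p = 0.774), and that over the second held 1111, 1026 and 1021 in flox against 1009.7, 1001 and 1097 in AKO (log2 fold change -0.02, SE 0.13, adjusted p = 0.950). Both overlapped, and the second ranked between percentiles 98.1 and 98.8.

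Downstream of Tef lay a cluster of brown fat peaks. The peak 29.2 kb from the first start site (chr15:81831402-81831808) had the most reads per kb of all member peaks (1251), with 605, 633 and 529 reads in flox against 537, 268 and 483 in AKO mice. It overlapped between the genotypes through AKO mouse 1 (log2 fold change -0.05, SE 0.24, adjusted p = 0.965, and -0.51 without the covariate). The peak 31.9 kb away (chr15:81834164-81834526) held 422, 446 and 361 reads in flox against 267, 301 and 333 in AKO mice without overlap (log2 fold change -0.39, SE 0.21, adjusted p = 0.622), and no iWAT peak covered it. The smallest p-value for Tef in brown fat was 5.89 kb upstream (chr15:81796275-81796781), with 215, 242 and 269 reads in flox against 172, 229.8 and 198 in AKO mice, where AKO mouse 2 lay among the flox mice (log2 fold change -0.53, SE 0.17, unadjusted p = 0.0191, adjusted p = 0.496).

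One peak of the cluster, 26.2 kb from the first start site, was among the 2 member peaks that edgeR called in iWAT, and its sequence is printed for that reason. It holds none of the letters searched, so it is in lower case throughout.
Tef 26.2 kb downstream, iWAT peak, chr15:81828484-81828724, plus strand: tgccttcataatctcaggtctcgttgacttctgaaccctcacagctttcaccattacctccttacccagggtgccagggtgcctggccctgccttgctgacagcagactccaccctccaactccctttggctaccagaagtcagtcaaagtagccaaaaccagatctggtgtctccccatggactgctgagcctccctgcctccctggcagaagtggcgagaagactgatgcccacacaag

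It held 42.8, 40.0 and 58.5 reads in flox against 68.0, 84.5 and 84.5 in AKO aliquots, so every AKO aliquot was higher. The log2 fold change was 0.75 with an SE of 0.19 (limma, unadjusted p = 0.00448, adjusted p = 0.176), and edgeR's quasi-likelihood test gave an adjusted p of 0.0526. DESeq2 gave 0.163. The wider brown fat peak at this place (chr15:81828439-81829583) went the other way, with 689.7, 677 and 719 reads in flox against 575, 477 and 634 in AKO mice, again without overlap (log2 fold change -0.20, SE 0.20, adjusted p = 0.790).

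Nfil3, the repressor of the group, lies on the minus strand of chromosome 13 (chr13:52967209-52981073), and its peaks reached 145 kb upstream into the gene Ror2. The brown fat peak over the start site (chr13:52980398-52981681), which holds the D-box stretch, held 1225, 970.2 and 993 reads in flox against 959, 614 and 857 in AKO mice. All AKO values lay below the lowest flox value. With the covariate the log2 fold change was -0.06 with an SE of 0.19 (adjusted p = 0.942), and without it -0.41. The iWAT peak at the same place (chr13:52980525-52981446) held 399.9, 322 and 326 reads in flox against 299, 345 and 357 in AKO aliquots, with overlap (log2 fold change -0.06, SE 0.15, adjusted p = 0.875). In both tissues it was the Nfil3 peak with the most reads per kb, 729 in brown fat and 370.4 in iWAT.

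The other 3 Nfil3 peaks that were lower without overlap in brown fat, as 8.84% of all peaks were, lay away from the start site. Within intron 1, 6.24 kb downstream, the peak with the pair of E-boxes shown above (chr13:52974710-52974949) held 95.6, 142 and 71.1 reads in flox against 58.8, 50.2 and 63.3 in AKO mice (log2 fold change -0.52, SE 0.31, adjusted p = 0.655). Of brown fat peaks of like width, 8 of 5184 (0.154%) held at least 2 E-boxes, and iWAT had no peak at this place. In Ror2, the peak 139 kb upstream (chr13:53119865-53120480) held 461, 429 and 359.6 reads in flox against 309, 261 and 300.3 in AKO mice (log2 fold change -0.30, SE 0.17, adjusted p = 0.646). The one 145 kb upstream (chr13:53125639-53126287) had the smallest p-value for Nfil3, with 175, 271 and 229 reads in flox against 153, 160.3 and 154 in AKO mice (log2 fold change -0.66, SE 0.23, unadjusted p = 0.0248, adjusted p = 0.511). AKO mice were close to each other there and below all flox mice.

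In iWAT, the intron 1 peak 2.55 kb downstream of the Nfil3 start site was the other one that edgeR called. It was the member peak with the smallest p-value in either tissue and is printed whole. It is rich in G and C (81.9%) and holds none of the letters searched.
Nfil3 intron 1 peak, iWAT, chr13:52978409-52978634, minus strand: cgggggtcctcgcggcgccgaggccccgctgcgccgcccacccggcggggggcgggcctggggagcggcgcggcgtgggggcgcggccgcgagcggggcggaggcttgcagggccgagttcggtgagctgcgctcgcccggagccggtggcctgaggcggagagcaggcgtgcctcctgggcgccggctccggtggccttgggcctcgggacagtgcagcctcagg

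It held 50.6, 54.5 and 53.4 reads in flox against 70.3, 81.1 and 95.2 in AKO aliquots. The flox aliquots were nearly equal and all AKO aliquots higher, with a log2 fold change of 0.62 and an SE of 0.15 (limma, unadjusted p = 0.00407, adjusted p = 0.173). EdgeR gave an adjusted p of 0.0854 and DESeq2 0.207. The brown fat table lists no peak at this place, the only iWAT member peak without a brown fat partner. The iWAT peak in Ror2 139 kb upstream (chr13:53120236-53120393) held 25.7, 25.6 and 25.8 reads in flox against 32.3, 27.4 and 37.4 in AKO aliquots (log2 fold change 0.31, SE 0.15, adjusted p = 0.382).

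**Figure D4:**
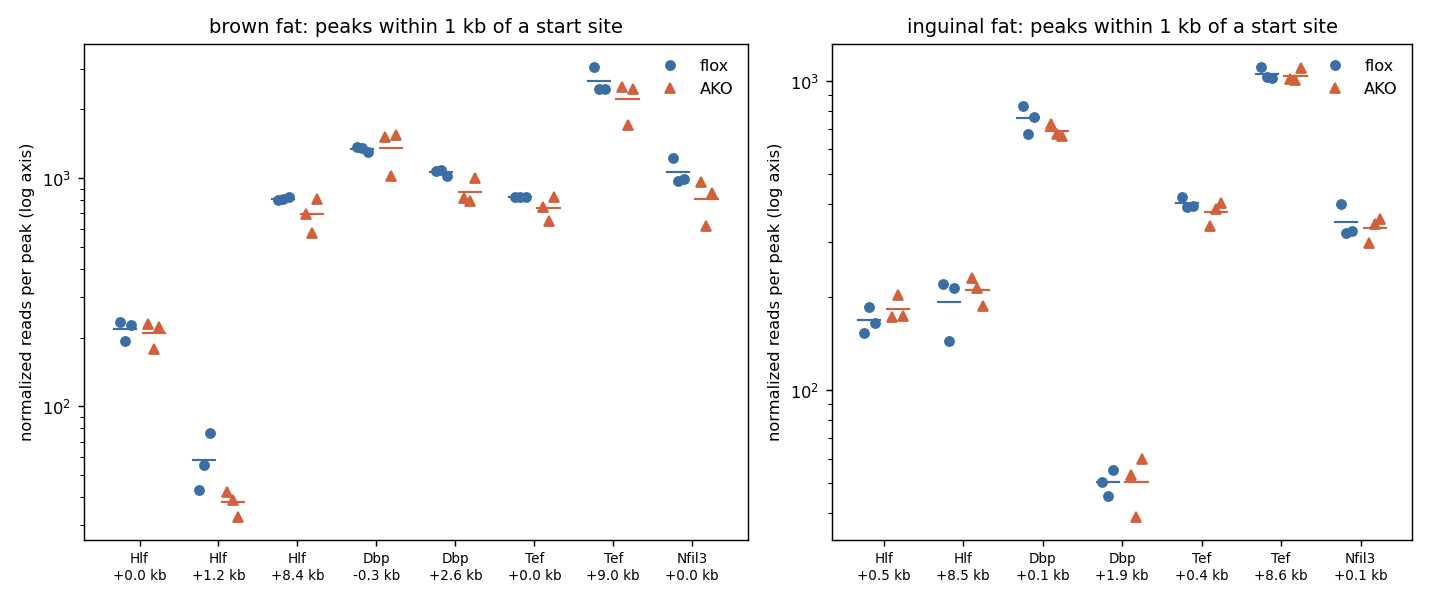
Normalized reads (vertical axis, log scale) of every sample at the member peaks within 1 kb of an annotated start site, 8 in brown fat (left) and 7 in inguinal fat (right), labelled by gene and distance of the midpoint from the main start site, with flox as circles, AKO as triangles and lines at the means. The groups overlap at all 7 inguinal peaks and at 5 of the 8 brown fat peaks, the exceptions being Hlf 1.24 kb downstream, the second Dbp peak and Nfil3 at the start. Of all brown fat peaks within 1 kb of a start site, 6.75% were lower and 10.2% higher without overlap.

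Seen over positions, the 8 brown fat member peaks within 1 kb of a start site had a median log2 fold change of -0.06 (0.09 over all such peaks of the table) and the 29 others -0.19 (-0.04 over all others). In iWAT the 7 start-site peaks had a median of -0.02 (0.00 over all such peaks) and the 19 others 0.15 (0.00 over all others). All 7 iWAT member peaks that were higher without overlap were among those 19, an order shown by 11.2% of all peaks farther from a start site and by 9.66% of those within 1 kb. By gene, the medians in brown fat were -0.13 for Hlf, 0.03 for Dbp, -0.12 for Tef and -0.20 for Nfil3, and in iWAT 0.14, -0.07, 0.00 and 0.15. The reads of all peaks of a gene, summed per sample, gave AKO means of 85.6% of flox for Hlf, 92.7% for Dbp, 84.4% for Tef and 83.5% for Nfil3 in brown fat. In iWAT they were 113% for Hlf, 91.5% for Dbp, 99.5% for Tef and 105% for Nfil3. The summed reads of Nfil3 came to 4057, 3699 and 3701 for flox brown fat against 3360, 2992 and 3216 for AKO, and those of Hlf 4089, 3848 and 4169 against 3557, 3038 and 3769.6, so the genotypes were apart for both genes, as they were for Tef (5658 to 6219.6 against 4238 to 5430.4). Those of Dbp overlapped. In iWAT the genotypes were apart for Hlf alone, with 902 to 1026 reads in flox against 1083 to 1138 in AKO aliquots. The share of all genes whose sums were apart was not computed, so these sums have no background. AKO mouse 2, the brown fat sample with the fewest reads, had the lowest sum for every member gene.

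The order of the genes by reads per kb over their peaks was Tef (714), Dbp (698), Hlf (444) and Nfil3 (394) in brown fat, and Dbp (415), Tef (392), Nfil3 (214) and Hlf (202) in iWAT. These are means over all 6 samples of a table and depend on how wide the peaks were called. By rank within a table, 6 of the 37 brown fat peaks and 5 of the 26 iWAT peaks were above the 90th percentile of reads per kb in every sample. Before scaling, the lowest read number of a member peak in any sample was 7 in brown fat and 3 in iWAT, and 36 of the 37 and 25 of the 26 peaks held at least 10 reads in every sample.

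By an overlap of at least 1 base, most places that were open in one depot were open in the other. Of the brown fat member peaks, 27 of 37 (73.0%) overlapped an iWAT peak by at least 1 base, against 53.8% of all brown fat peaks, and of the iWAT member peaks 25 of 26 (96.2%) overlapped a brown fat peak, against 80.5%. The stricter overlap rule of the closing section reversed this excess over all peaks. By it, 14 of 37 brown fat member peaks (37.8%) overlapped an iWAT peak, against 41.0% of all brown fat peaks. Of the iWAT member peaks, 14 of 26 (53.8%) did so, against 60.6% of all iWAT peaks. The overlaps of at least 1 base formed 27 pairs. In 15 of them the log2 fold change was negative in brown fat and positive in iWAT, in 6 negative in both, in 3 positive in both, and in 3 positive in brown fat and negative in iWAT. For Hlf it was 8 of 10 pairs that were negative in brown fat and positive in iWAT, for Nfil3 4 of 9, for Tef 3 of 6 and for Dbp 0 of 2. The pairs are not all distinct, since 25 iWAT peaks gave 27 pairs. This split was not computed over all overlapping pairs of the tables, so it is not shown to be particular to these genes. The tables were normalized separately, brown fat mice were not stated to be cold-acclimated and the iWAT aliquots came from 1 pool a genotype, so depot, temperature and pooling cannot be told apart, and the difference between the depots was not tested. In 23 of the 27 pairs the brown fat peak stood at a higher percentile of its table than the iWAT peak of its own. The same count over all overlapping pairs was not made, and the tables differ in size and in the share of peaks they have in common.

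**Figure D5:**
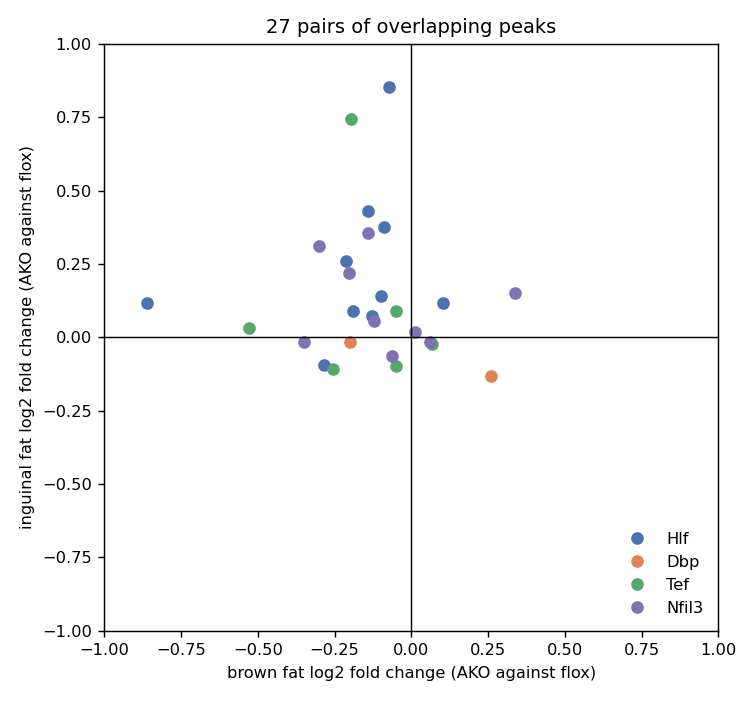
Log2 fold change of AKO against flox in brown fat (horizontal axis) and inguinal fat (vertical axis) for the 27 pairs of overlapping member peaks, coloured by gene. The upper left corner, lower in brown fat and higher in inguinal fat, holds 15 pairs, 8 of them of Hlf.

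The factors' regulators and binding sites were described with lists. Of the peaks of 20 core clock genes, 87 in brown fat had a median log2 fold change of 0.06, with 34 negative, and 72 in iWAT had -0.05, with 38 negative. Limma called none of them. At an unadjusted p under 0.05, 1 brown fat clock peak was lower and 5 higher, and in iWAT 3 were lower and 8 higher. Over all peaks those shares were 5.59% and 3.46% in brown fat and 7.42% and 7.61% in iWAT. DESeq2 called 0 in both tissues, and edgeR 0 in brown fat and 2 in iWAT, where it called 1846 of all 39558 peaks. The summed start-site peaks of the clock genes overlapped in brown fat and were lower in AKO iWAT, at 7718 to 8163 reads in flox against 7624 to 7666 in AKO aliquots.

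The C/EBP genes, whose proteins bind sites like the D-box, had 28 peaks in brown fat with a median of -0.02 and 24 in iWAT with -0.07. Limma called 0 in both. At an unadjusted p under 0.05 it marked 4 of 28 as lower and 0 as higher in brown fat, beside 5.59% and 3.46% of all peaks. In iWAT it marked 3 of 24 as lower and 4 as higher, beside 7.42% and 7.61%. DESeq2 called 1 in each tissue, of 174 and 420 calls over the whole tables. EdgeR called 0 and 5, of 84 and 1846. Genes known as PAR bZIP or NFIL3 targets in liver had 25 peaks in brown fat with a median of -0.03 and 19 in iWAT with 0.04, with 0 called by limma. At an unadjusted p under 0.05, 3 of 25 were lower and 0 higher in brown fat, and 2 of 19 lower and 1 higher in iWAT. The shares of all peaks are those just given. DESeq2 called 1 and 0 of them, and edgeR 0 and 3. Peaks with a D-box, 1591 in brown fat, had a median log2 fold change of -0.02. The groups did not overlap at 205 of them that were lower in AKO mice (12.9%) and 88 that were higher (5.53%), beside 8.84% and 8.77% of all brown fat peaks. In iWAT, 854 peaks with a D-box had a median of -0.07, with 114 lower (13.3%) and 58 higher (6.79%) without overlap, beside 10.3% and 10.6% of all iWAT peaks. Peaks with a D-box were wider than the table's median, at 694 against 482 bp in brown fat and 608 against 432 bp in iWAT, and the part of width in this split was not tested. Limma called 0 in either tissue. At an unadjusted p under 0.05, 76 of 1591 were lower and 34 higher in brown fat, beside 5.59% and 3.46% of all peaks. In iWAT, 75 of 854 were lower and 34 higher, beside 7.42% and 7.61%. DESeq2 called 5 in brown fat, all lower, and 14 in iWAT (12 lower, 2 higher). EdgeR called 4 in brown fat, all lower, and 52 in iWAT (41 lower, 11 higher). Over all peaks DESeq2 called 174 of 58558 in brown fat and 420 of 39558 in iWAT, and edgeR 84 and 1846. Peaks with an E-box showed a like split without overlap, with 10.8% lower and 7.36% higher in brown fat and 11.6% and 8.16% in iWAT. So did those with a CRE (9.33% and 5.88%, and 11.4% and 7.20%). These orders take no covariate. With PC1, the brown fat median was 0.02 for E-box peaks and 0.09 for CRE peaks. Of them 46.1% and 33.1% were negative, against 49.1% of all peaks. Without PC1 the brown fat medians were -0.06 and -0.11. The iWAT medians were -0.02 and -0.03.

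For each gene the peak with the most reads within 1 kb of an annotated start site was taken, which was the intron 2 peak 8.44 kb downstream for Hlf and the peak at the second start site for Tef. Start-site peaks of other genes that followed these peaks most closely over the 6 samples of a table were ranked by Pearson's r of log2(normalized reads + 1), as a description with no p, since samples share depth and genotype. In brown fat the nearest was Ankrd40 for Hlf (r = 0.999), Prr13 for Dbp (0.995), Parm1 for Tef (0.999) and Ube2v2 for Nfil3 (0.998), out of 13818 candidates, of which 392, 320, 2808 and 1742 had an r above 0.9. In iWAT it was Fam135a for Hlf (0.997), Tle3 for Dbp (0.990), Fnbp4 for Tef (0.997) and Oxr1 for Nfil3 (0.994), with 70 to 159 of 11631 candidates above 0.9. Each of these member peaks thus had many peaks that varied like it across 6 samples, most of all those of Tef and Nfil3 in brown fat.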

How the data were processed

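Each signal value deposited is a read count per peak after division, by the authors, by 1 size factor per sample. Before that, the authors trimmed adapters, mapped reads to mm10 with BWA 0.7.17-r1188, marked duplicates with Picard 2.8.14, kept autosomal reads of mapping quality 30 or more, called broad peaks per sample with MACS2 2.1.1.20160309, joined the peaks and counted reads with bedtools 2.27.1, and inguinal reads were first trimmed to 38 bp. How the transposase reactions of a sample were merged is not given in the sources used here. The log2 fold changes, their p-values and the score of the test in the deposited tables come from the authors' DESeq2 1.20.0 fits, with PC1 as covariate in brown fat, and were not used. Every column of per-sample values was used.

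Dividing each column by its smallest step gave whole reads for 100% of values within 0.001. Peak starts, counted from 0 in the tables, were raised by 1. Limma 3.58.1 (R 4.3.3) was fitted to log2(normalized reads + 1) over all peaks of a table, and p-values were adjusted by Benjamini-Hochberg and called under 0.1. The PC1 score was computed from all peaks. A fold change on this scale understates the change of low peaks. DESeq2 1.42.0 and edgeR 4.0.16 on the recovered reads were alternatives, since the deposited unit is not counts. The fits were tested on simulated data. Genes follow GENCODE for GRCm38 and promoters RefSeq. Distances run from the main start site to the peak midpoint. Cell type and clock lists were written from general knowledge. The values of 1 clock gene are not reported here. The member genes and all lists were chosen with earlier results of these data known.

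For each gene and tissue, peaks within 1 kb of an annotated start site, the peak with the most reads per kb and that with the smallest p-value are described in full. Other member peaks named were those whose groups did not overlap or whose unadjusted p was under 0.05, and the peak under the Hlf E-boxes, chosen after their values were seen. Groups did not overlap where the lowest sample of 1 genotype exceeded the highest of the other, and an exact permutation test of 3 against 3 samples cannot go below 0.1. Same-numbered samples did not deviate together (r = 0.49, 0.06 and -0.24 in brown fat and -0.04, -0.05 and -0.06 in inguinal fat), so replicate numbers were not taken as pairs.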

Additional observations from a re-analysis of the deposited data

Results flagged for a closer look

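At 2 places the depots moved in opposite directions with no overlap between genotypes in either. The share of all overlapping pairs of the 2 depots that do so was not computed. The Tef peak 26.2 kb downstream of the first start site was lower in AKO brown fat (log2 fold change -0.20) and higher in AKO inguinal fat (0.75). The Nfil3 peak in Ror2, 139 kb upstream, was lower in AKO brown fat (-0.30) and higher in AKO inguinal fat (0.31). The difference between the depots was not tested, since the tables were normalized separately and tissue, housing temperature and pooling cannot be told apart. Groups of 3 samples are too small for a check of single outlying samples.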

How the results depend on the processing

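The calls depended on the tool. Over all brown fat peaks, where limma called 0, DESeq2 called 127 lower and 47 higher, DESeq2 without PC1 (added after seeing the data) 303 and 300, edgeR 67 and 17, and limma with a pseudocount of 10 called 1 lower. Over all inguinal peaks DESeq2 called 225 lower and 195 higher and edgeR 996 and 850, of which 2 were member peaks, both higher (Tef 0.74, Nfil3 0.64). In brown fat, DESeq2 left 2 member peaks lower at an unadjusted p under 0.05, and DESeq2 without PC1, limma without PC1 and the replicate block without PC1 each gave 1 that was higher. The median of the member peaks was -0.25 without PC1. Leaving out single samples gave from 1 (without flox replicate 3) to 4 such lower member peaks in brown fat. In inguinal fat it moved the member median between 0.026 (without flox replicate 2) and 0.18 (without flox replicate 3) and the number of negative member peaks between 6 and 13 (without flox replicate 2).

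PC1 of the inguinal samples separates the genotypes, so a fit with it as covariate removes most of the comparison. It gave a member median of 0.72 with 0 higher at an unadjusted p under 0.05, and turned the direction of start-site peaks (Dbp 0.40 and, in exon 2, 1.22, Hlf -0.93, Nfil3 1.74, Tef 0.92 and 0.90). Taking inguinal peaks within 50 kb of a member's start site in place of assigned symbols gave 13 negative of 35, with 1 lower at an unadjusted p under 0.05. An overlap of at least 50% of both peaks left 14 pairs. Member peaks were then shared less often than all peaks, at 37.8% against 41.0% in brown fat and 53.8% against 60.6% in inguinal fat.

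A replicate block was fitted although the numbers do not pair the samples. It called 0 peaks in either tissue and, with PC1, turned the brown fat values of the Hlf start site (-0.019), the first Tef start site (0.027) and Tef 29.2 kb downstream (0.018). Without PC1 the block gave a member median of -0.25 and values of -0.0051 at the Dbp, -0.060 at the Hlf and -0.28 at the second Tef start site, as did the fit without block and PC1. DESeq2 without PC1 gave -0.047 and -0.26 at the Hlf and second Tef start sites, and cyclic loess -0.018 at the second Tef start site. At the exon 2 Dbp peak of inguinal fat DESeq2 and edgeR gave 0.0022 and 0.0025. Of the peaks described in full, leaving out single samples turned the sign in 9, those of brown fat only without flox replicate 3. The ranges over the samples left out were -0.27 to 0.074 and -0.26 to 0.097 for the Hlf intron 2 peaks 35.4 and 8.44 kb downstream, -0.16 to 0.16 for the Nfil3 start site, -0.16 to 0.065 for the first Tef start site and -0.21 to 0.20 for Tef 29.2 kb downstream. In inguinal fat they were -0.14 to 0.16 for Dbp exon 2, -0.052 to 0.25 for Hlf 8.44 kb downstream, -0.12 to 0.036 for the Nfil3 and -0.065 to 0.016 for the second Tef start site. The cause was not tested.

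Over all alternatives, direction and side of the threshold were kept by 393 of 427 fitted values of the peaks described in full. Direction turned in 32, and 2 inguinal values became called. No peak was called in the main fit, so the side could change only by a new call. The alternative of a threshold of 0.05 reuses the main values and could not differ. A DESeq2 value without an adjusted p counted as not called. Depth limits the lowest member peaks, which held 7 reads in brown fat and 3 in inguinal fat in their lowest sample.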
